A study of Macaca fascicularis with 24 samples.

Results

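Of 21 samples of monkey thoracic aorta, 6 carried a strong haemoglobin signal and 11 a weak one, and the genes that differed between these kinds of sample are described here. The samples were chosen by HBB, the gene of the beta chain of adult haemoglobin. On each array the mean of log2(deposited intensity + 16) over the 3 HBB probe sets was taken. Samples at 13 or more are called haemoglobin-rich, samples below 11 haemoglobin-poor, and the 4 samples from 11 up to 13 enter neither kind. The split follows a measured value and not a label, so differences between rich and poor samples are given as a description with no test, and HBB itself is left out of every count between these kinds.

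The samples come from cynomolgus macaques, Macaca fascicularis, and the study compared old with young aortas of males and of females. Total RNA of each aorta was copied, labelled with biotin and read on 24 single-colour arrays, 6 for each of 4 groups. The labels give the mean age of each group as 21.2 years for old females, 20.0 years for old males, 7.2 years for young females and 6.6 years for young males, and name no treatment, diet, strain or single animal's age. The arrays of old females 1 and 4, of young females 3 and 4 and of young males 3 and 4 were near-identical and each pair was averaged into 1 sample, which leaves 6 old males and 5 samples in each of the other groups. Nothing in the labels says that replicates come from separate animals, so the spread between samples may be partly technical. The probes were designed for human transcripts and were read with monkey RNA.

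Haemoglobin is a tetramer of alpha-type and beta-type globin chains, each holding a haem group, and it fills the circulating red cell. Mature red cells have lost their nucleus but keep some globin messenger RNA for a time, most of it in the youngest cells, the reticulocytes. The wall of a large artery consists of smooth muscle cells, elastic and collagen fibres, fibroblasts and an endothelial lining, none of which is a known major source of haemoglobin. Blood in the lumen, in clots and in the small vessels of the outer wall holds red cells, platelets and white cells together.

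HBB on the deposited log2 scale read 15.36 in old female 6, 15.13 in young female 6, 14.77 in young male 6, 14.73 in old female 5, 13.61 in old male 6 and 13.23 in old female 3. These 6 samples are the haemoglobin-rich ones, with a mean of 14.47 ± 0.86 (SD, n = 6). The 11 haemoglobin-poor samples ran from 8.98 to 10.48, with a mean of 9.84 ± 0.54 (SD). Between the limits lay old female 2 and old male 3, both at 12.02, old male 5 at 11.17 and the averaged young males 3 and 4 at 11.06. The nearest samples on each side of the upper limit were thus old female 3 at 13.23 and the 2 samples at 12.02, and at the lower limit 11.06 and 10.48. No value fell between 12.02 and 13.23.

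Every age and sex group held both kinds of sample, in unequal numbers. Of the 5 old females 3 were rich and 1 was poor, of the 6 old males 1 was rich and 3 were poor, of the 5 young females 1 was rich and 4 were poor, and of the 5 young males 1 was rich and 3 were poor. The rich kind therefore held 4 old and 2 young samples, and 4 females and 2 males. Each pooled difference below mixes the haemoglobin kind with this make-up, and the same difference taken inside each group is given beside the main results. Those inner differences set 3 old females against 1, and in the other groups 1 rich sample against 3 or 4 poor ones. All 4 samples numbered 6 were rich, and outside old females the single rich sample of each group was its number 6, so haemoglobin kind and replicate number cannot be told apart there.

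**Figure D1:**
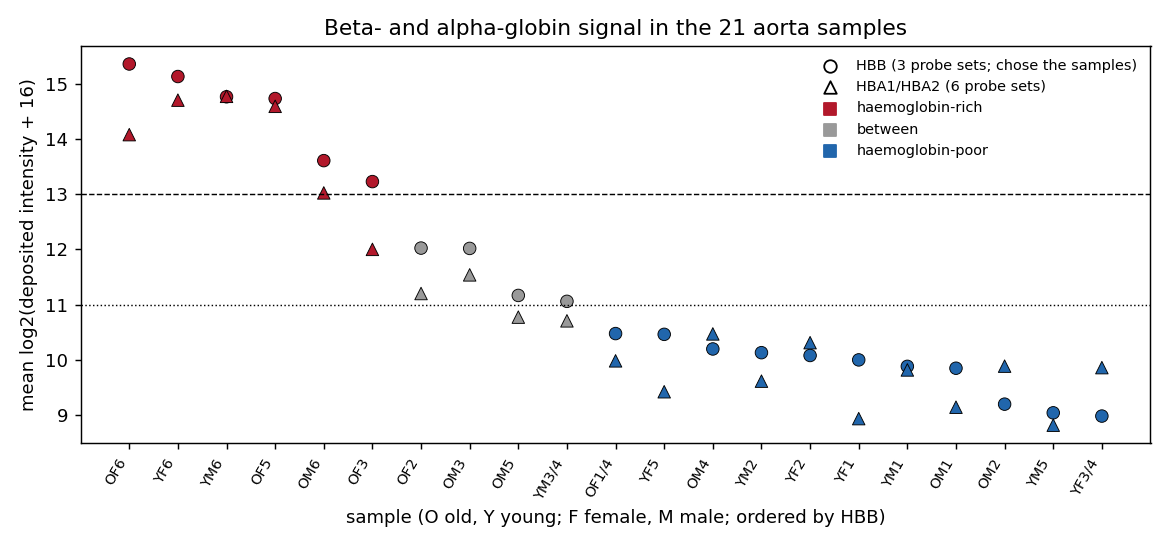
Mean log2(deposited intensity + 16) of HBB (circles, 3 probe sets) and of the alpha-globin genes HBA1 and HBA2 (triangles, 6 probe sets) in the 21 samples, ordered by HBB; O and Y stand for old and young, F and M for female and male, and dashed and dotted lines mark the limits 13 and 11. Alpha-globin was above the highest of the samples between, 11.54, in the 6 rich samples and at 10.47 or less in the 11 poor ones.

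Some samples stood apart in measures other than haemoglobin, and the reasons were not tested. The 6 samples whose arrays correlated least with the others (median correlation under 0.85) were 1 rich sample, old female 6, 1 between the limits, old female 2, and 4 poor ones, old males 2 and 4, young male 1 and the averaged young females 3 and 4. Their hybridisation control probe sets averaged 12.84 to 14.32 on the log2 scale, against 12.13 or less on the other arrays. Their median intensities were 234.4 or more, against 212.1 or less. The actin control gives the 3′ over the 5′ signal, a sign of RNA breakdown, and on the log2 scale it ran from -0.18 to 1.15 in rich and from -0.11 to 1.72 in poor samples, so the kinds overlapped. The female-specific RNA XIST read 10.31 in the sample labelled young male 1, a poor one, against 6.09 to 8.14 in the other 10 male samples and 11.18 to 13.11 in females. Its Y-linked RPS4Y1 was at 11.97, against 12.45 to 12.95 in the other males. Without the sample labelled young male 1, the counts of non-overlapping probe sets that differed by at least 1, given below, stayed at 8 and 0.

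Alpha-globin followed HBB closely. HBA1 and HBA2 are neighbouring gene copies of the alpha chain, and 6 probe sets are assigned by the annotation to both, so the copies cannot be told apart. Their mean on the normalised log2 scale was 15.08 in young male 6, 14.97 in old female 5, 14.60 in young female 6, 13.78 in old female 6, 12.96 in old male 6 and 11.80 in old female 3. In the 11 poor samples it ran from 8.86 to 10.55 with a median of 9.83, and in the 4 samples between from 10.70 to 11.42. All rich samples thus lay above all samples between, and those above all poor ones. The mean difference between rich and poor was 4.18, and the 6 probe sets taken singly gave 3.77 to 4.52.

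The same 6 probe sets were higher in the rich sample or samples of every age and sex group. The set with the largest difference gave 3.75 in old females, 3.23 in old males, 5.40 in young females and 6.08 in young males. The balance of the chains was not the same in all rich samples: on the deposited log2 scale alpha-globin minus HBB was -1.28 in old female 6, -1.23 in old female 3 and 0.01 in young male 6. Probe sets differ in brightness, so only the spread of this value between samples can be read. In the poor samples it ran from -1.06 to 0.88.

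The other globin chains differed less. HBG1 and HBG2 encode the gamma chains of fetal haemoglobin, and 3 probe sets carry both names. One of these sets read 8.23 to 9.29 in rich and 7.09 to 8.14 in poor samples, a difference of 0.87 with no overlap, and the other HBG1 and HBG2 sets gave 0.97 and 1.16 with overlap. Gamma-chain and beta-chain transcripts are similar in sequence, and whether HBB RNA binds the gamma-chain probes was not tested. HBD, the delta chain of a minor adult haemoglobin, read 7.70 to 8.26 in rich and 6.24 to 8.48 in poor samples, a difference of 0.61 with overlap. The embryonic chains differed by 0.21 and 0.02 (HBE1, epsilon) and 0.20 (HBZ, zeta), and HBQ1, theta globin, by -0.00.

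Red cell genes outside the globins did not follow as a group. The enzymes of haem synthesis, the proteins of the red cell membrane, the enzymes, chaperones and carriers of the red cell cytosol and the transcription factors of the lineage made up 107 probe sets of 55 genes. Of these, 2 were higher in rich samples by at least 1 on the log2 scale, 1 was lower by as much, none was free of overlap, and the median difference was -0.02. Over all 22212 probe sets outside HBB, 0.891% were higher by at least 1 and 0.369% lower, so the shares of the red cell lists are set beside that background. Just 42 of the 107 probe sets passed the low-value filter, which kept the probe sets at or above the median brightness, taken as the mean over the 21 samples.

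ALAS2, the enzyme that starts haem synthesis in red cell precursors, was the member with the largest difference. Its probe set, below the filter, read 8.37 in young female 6, 8.20 in old female 5, 5.51 in young male 6 and 5.40 in old female 6, against 4.69 in old male 6 and 4.65 in old female 3. The 11 poor samples ran from 4.56 to 4.86. The 4 rich samples with the strongest HBB thus lay above all poor samples and the remaining 2 among them. The mean difference was 1.44, on a scale where an intensity of 0 would read as 4, and the added 16 understates the change of so dim a probe set.

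CA1, a carbonic anhydrase abundant in red cells, read 10.12 in old female 6, 9.26 in old female 5 and 7.90 to 8.51 in the other rich samples, against 6.28 to 8.68 in poor ones. Its difference was 0.96 and the ranges overlapped. ERMAP, a membrane protein of the erythroid lineage, differed by 1.03 on a dim probe set. SPTB, the beta-spectrin of the membrane skeleton, was lower by -1.11 on one dim probe set and higher by 0.51 on the other.

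Classical red cell proteins stayed close to 0 difference. AHSP, the chaperone of free alpha chains, gave -0.17, the band 3 anion exchanger SLC4A1 gave -0.02, and the lineage transcription factors KLF1 and GATA1 gave -0.02 and -0.10. The probe sets of all 4 genes were below the filter. How well these human probes read the monkey transcripts was not tested. BPGM, which makes the red cell's 2,3-bisphosphoglycerate, was above the filter at 0.26, with 4 of the 6 rich samples above all poor ones and 1, old female 6 at 7.22, below them all.

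**Figure D2:**
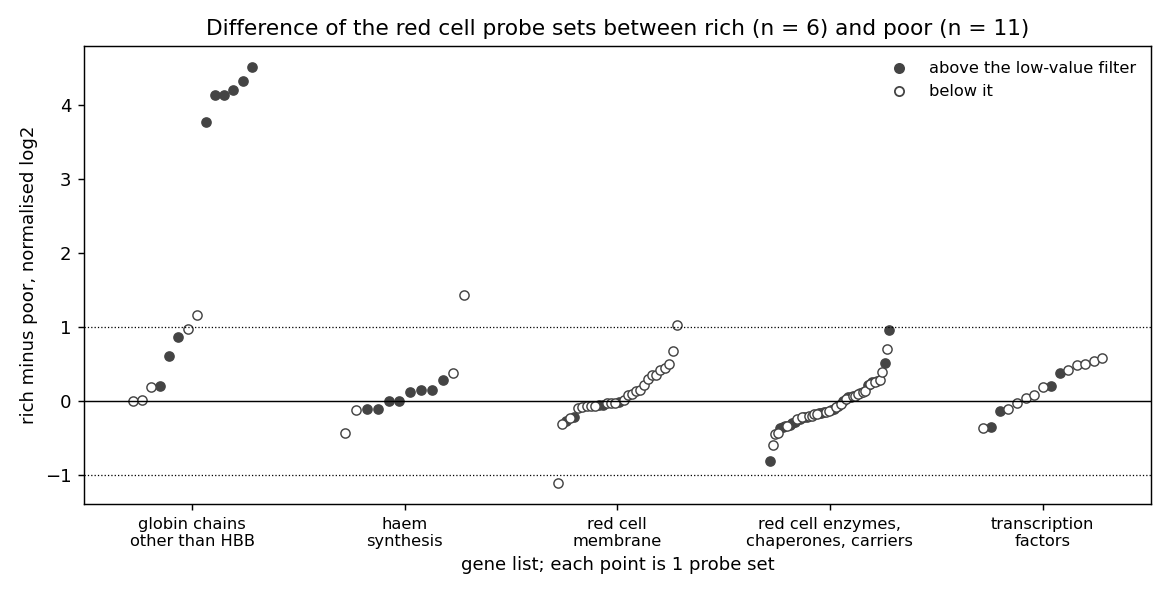
Difference of the mean normalised log2 intensity, rich (n = 6) minus poor (n = 11), for every probe set of 5 red cell gene lists; each point is 1 probe set, filled where it passed the low-value filter, and dotted lines mark -1 and 1. The 6 points between 3.77 and 4.52 are the alpha-globin sets, and the 107 probe sets of the other lists run from -1.11 to 1.44.

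Across the array few probe sets parted the kinds completely. Of the 11105 probe sets above the filter, HBB left out, 8 (0.072%) were higher by at least 1 in rich samples with no overlap of the ranges, and 0 (0%) were lower in this way. The 8 were the 6 alpha-globin sets, MNDA and CXCR4. Leaving out overlap, 67 (0.603%) were higher by at least 1 and 20 (0.18%) lower. The 67 held 6 alpha-globin sets and 52 sets of 45 named genes. All 67 had the same sign when the difference was averaged over the age and sex groups, and 45 of them still reached 1. Without old female 6, 40 of the 67 reached 1. The filter's mean includes the rich samples, so a probe set dim in poor samples can pass it through the rich ones. S100A8 and PSMB8, among the 67, averaged 7.12 and 7.08 in poor samples. Which of the 67 would pass on the poor samples alone was not tested. With no filter, 198 (0.891%) of 22212 were higher by at least 1 and 82 (0.369%) lower, and the non-overlapping counts stayed at 8 and 0.

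MNDA, a nuclear protein of myeloid cells such as monocytes and granulocytes, read 9.89 in old female 3, 9.80 in old female 6, 9.64 in young female 6, 9.40 in young male 6, 9.39 in old female 5 and 9.10 in old male 6. The poor samples ran from 7.35 to 8.98 with a median of 8.25, and the 4 samples between from 8.04 to 8.61. The 6 rich samples were thus the 6 highest of the 21. The difference was 1.35, and inside the groups it was 1.92 in old females, 0.99 in old males, 1.26 in young females and 1.27 in young males. It stayed at 1.30 without old female 6.

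CXCR4, the receptor for the chemokine CXCL12 on most white cells, was uneven among its probe sets. On the called set it read 12.92 in old female 6 and 8.51 to 9.13 in the other rich samples, against 7.40 to 8.45 in poor ones. Its difference of 1.53 fell to 0.84 without old female 6, so the call rests on that sample. Without it CYLD, a deubiquitinase, was called in its place and the count stayed at 8. A second CXCR4 set overlapped between the kinds with a difference of 0.78, and 0.23 without old female 6. The third, a dim one, gave 1.60 with overlap.

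Leaving out old male 6 raised the count of non-overlapping higher probe sets from 8 to 14. The added genes were CORO1A, PTPRC, IKZF1, RAC2, CD53 and BMAL1. Old male 6 had a strong globin signal, at 13.61 for HBB, and read CORO1A, PTPRC, IKZF1 and RAC2 within the range of the poor samples. Leaving out old female 3, old male 6 or young female 6 each gave 1 lower probe set instead of 0, BCHE, an unnamed set and PREP in turn. Leaving out old female 5 or young male 6 changed neither count.

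Genes of white cells came next to alpha-globin. CORO1A, IKZF1, RAC2 and CX3CR1, and below BCHE, PREP and PTGER4, are in none of the lists and were named after their values were seen. CORO1A encodes an actin-binding coronin of white cells and read 12.30 in old female 6, 10.06 in old female 5, 9.93 in young male 6, 9.76 in young female 6, 8.93 in old female 3 and 8.36 in old male 6. The poor samples ran from 6.40 to 8.74, so 5 of the 6 rich samples lay above all of them. The difference was 2.15, and inside the groups 2.47 in old females, 1.09 in old males, 1.46 in young females and 2.54 in young males.

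PTPRC, or CD45, is carried by all nucleated blood cells. One probe set read 11.82 in old female 6, 9.30 in old female 5, 8.93 in old female 3, 8.88 in young male 6, 8.26 in young female 6 and 7.70 in old male 6, against 6.34 to 8.04 in poor samples, a difference of 1.94. A second, brighter in the mean, gave 1.46, and 0.81 without old female 6, and ran the other way in old males at -0.39. IKZF1, a transcription factor of lymphoid cells, read 8.94 to 11.30 in rich and 6.09 to 9.002 in poor samples, a difference of 1.79 with 5 of 6 rich samples above all poor ones. RAC2, a small GTPase of blood cells, read 8.58 to 12.05 against 5.79 to 8.89, a difference of 1.61 with 5 of 6 above.

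T cell genes were also higher. TRBC1, the constant part of the T cell receptor beta chain, differed by 1.69 on one probe set, with 4 of 6 rich samples above all poor ones, and by 0.94 and 0.83 on its brighter sets. On the first set rich samples read 8.16 to 10.48. The 4 poor samples whose arrays correlated least with the others read 5.24 to 6.83 there, and the other poor ones 7.42 to 8.53. The chemokine receptors CCR7, of naive T cells and other lymphoid cells, and CX3CR1, of monocytes and cytotoxic cells, differed by 1.56 (a dim probe set) and 1.43. CD3D, part of the T cell receptor complex, read 12.18 in old female 6 and 6.11 to 8.56 in the other rich samples. In poor samples it ran from 5.58 to 8.58, and its difference of 1.26 fell to 0.50 without old female 6.

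Granulocyte genes split the rich samples. S100A8, a calcium-binding protein abundant in neutrophils and monocytes, read 11.16 in old female 3, 10.10 in old female 5, 9.94 in young male 6, 9.47 in old female 6, 8.58 in young female 6 and 7.02 in old male 6. The poor samples ran from 4.83 to 9.54, and 3 of the 6 rich samples lay above all of them. The difference was 2.26 over all groups, and 3.83 in old females, -0.75 in old males, 1.14 in young females and 3.66 in young males. Old males thus ran the other way.

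The next 3 differences in the neutrophil list came from dim probe sets. S100A9, the partner of S100A8, differed by 1.48, CSF3R, the receptor for granulocyte colony-stimulating factor, by 1.41, and CAMP, the cathelicidin antimicrobial peptide, by 1.20. CAMP read 8.37 in young male 6, 6.68 in young female 6, 6.54 in old female 5 and 6.49 in old female 6, against 5.12 to 5.82 in poor samples. These are the 4 samples in which ALAS2 also lay above all poor ones. The granule enzymes MPO and ELANE, made in marrow precursors, gave -0.64 and -0.46. Of the 23 neutrophil genes on the array 3 passed the filter, with a median difference of 0.66, and of 0.26 without old female 6. Without the filter the median of the list was 0.09.

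Platelet chemokine genes were higher in the pooled comparison. PPBP, the precursor of platelet basic protein, read 10.25 in old female 6, 10.24 in young male 6, 8.94 in old female 3, 8.63 in young female 6, 7.96 in old male 6 and 7.81 in old female 5, against 5.24 to 8.72 in poor samples. Its difference was 1.84, with 3 of 6 rich samples above all poor ones, and inside the groups it was 1.40 in old females, -0.13 in old males, 2.17 in young females and 3.31 in young males. PF4 (platelet factor 4) and its copy PF4V1, both dim, differed by 1.34 and 1.71, with 4 and 5 of 6 above. The integrin subunits ITGB3 and ITGA2B and the receptor subunit GP1BA, all above the filter, gave -0.28, -0.10 and -0.12. The 4 platelet genes above the filter had a median of -0.11.

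**Figure D3:**
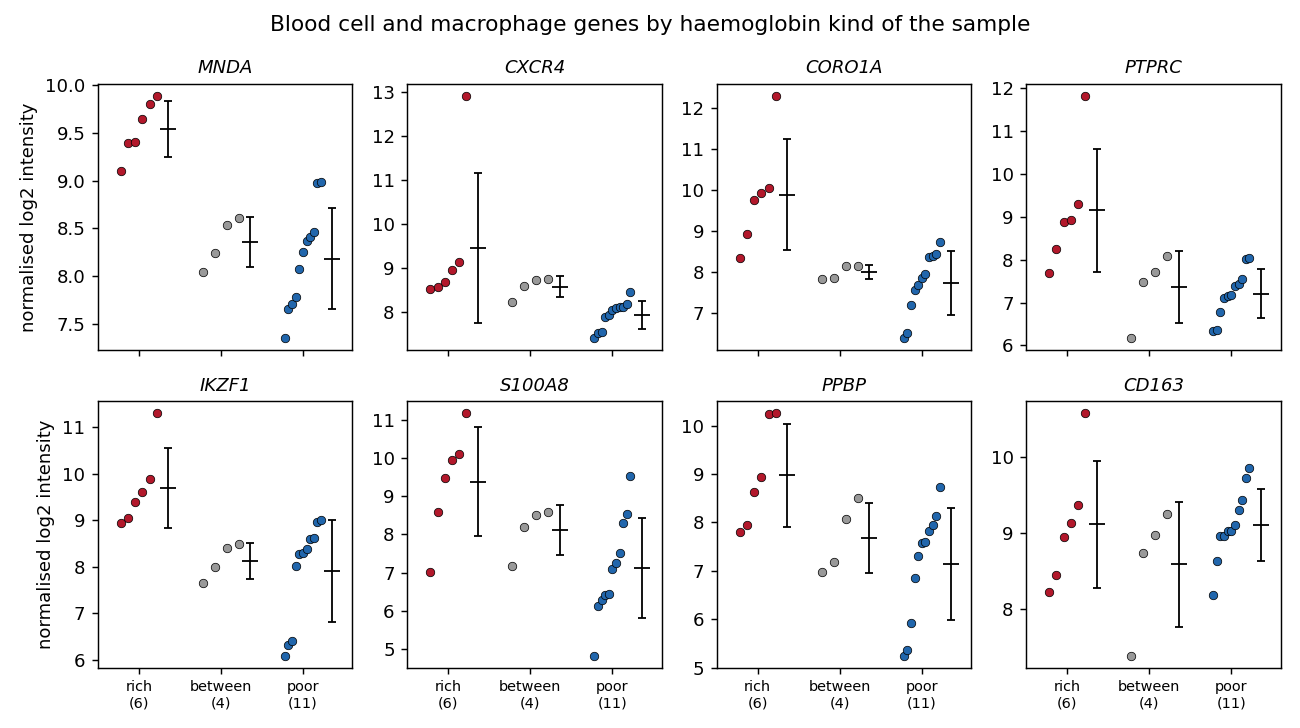
Normalised log2 intensity of 7 blood cell genes and of the macrophage gene CD163 in rich (6), between (4) and poor (11) samples; each point is 1 sample and the bar gives the mean with its SD. For MNDA and CXCR4 the rich samples lie above all poor ones, for the other blood cell genes the ranges overlap, and for CD163 the means are 9.11 and 9.11.

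Genes of monocytes and macrophages were higher to unequal degrees in the pooled comparison. All 14 genes of the list above the filter had a difference above 0, against 50.4% of the 6951 genes tested, and 8 reached 0.5, against 3.74% of all genes. The list's median was 0.51 and that of all genes 0.00. The filter's mean includes the rich samples, so a gene can pass it through them. Without the filter 18 of the list's 20 genes were above 0, 9 reached 0.5 and 1 reached -0.5. The list's median was then 0.42, and of all 11962 genes 6000 were above 0 and 689 reached 0.5. LYZ (lysozyme) differed by 1.36, LAPTM5, a lysosomal protein of white cells, by 0.82, and TYROBP, a signalling adaptor of myeloid cells, by 0.62. MRC1, the mannose receptor, and CD163, the scavenger receptor by which macrophages take up haemoglobin, differed by 0.03 and 0.01. CD163 read 8.22 to 10.58 in rich and 8.18 to 9.86 in poor samples.

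The monocyte and macrophage difference lay mainly in old females. There the median over the 14 genes was 0.97, with 13 of them higher, against -0.23 in old males (5 of 14), 0.13 in young females (9 of 14) and -0.02 in young males (7 of 14). Whether these group values differ from each other was not tested. The list's mean level was 10.40 in old female 6 and 10.06 in old female 3, and 8.67 to 9.59 in the other rich samples, against 8.23 to 9.35 in poor ones. The 3 T and natural killer cell genes above the filter (TRBC1, CD2 and CD6) had a median of 0.56, or 1.18 and -0.16 in old females and old males and 0.48 and 0.77 in young females and young males.

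The median of the B cell and plasma cell list rested on old female 6. The 5 genes above the filter had a median difference of 0.41, which became -0.00 without old female 6. IGKC, the kappa light chain constant region, read 12.66 in old female 6, 10.19 in young female 6 and 7.42 to 8.40 in the other rich samples, against 5.76 to 9.003 in poor ones. Its difference of 1.56 fell to 0.84 without old female 6. The other IGKC sets above the filter gave 1.10 and 0.45, and 0.16 and -0.008 without that sample. For IGHM, the heavy chain of IgM, the difference was 0.52, and 0.12 without that sample. A probe set for an immunoglobulin lambda variable segment, outside the list and chosen after its values were seen, gave 1.72, and 1.003 without old female 6, with 2.67, 0.72, 1.17 and 1.13 inside the groups (old females and males, then young females and males).

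HLA-DQB1, HLA-DRA and PSMB8 were named after their values were seen and stand for no wider group. HLA-DQB1, a class II chain shown by B cells, dendritic cells and activated macrophages, gave on its first probe set a difference of 2.32, above that of every other single-symbol gene past the filter, with 8.67 to 13.01 in rich and 7.02 to 10.07 in poor samples. Its 3 other probe sets above the filter gave 1.41, 1.46 and 1.65, and its 3 dim ones 0.23, 0.19 and -0.23. In old males the sets with 1.46 and 1.65 gave 0.06 and 0.01. HLA-DRA, the class II alpha chain, gave 1.57 and 1.38 on its sets, and PSMB8, an immunoproteasome subunit, 1.85. None of them was free of overlap. Class II genes are highly variable and alike in sequence, and which of them a probe set reads was not tested.

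Held within the age and sex groups, 37 probe sets (0.333% of 11105) were higher in each of the 4 groups and by at least 1 on average, and 8 (0.072%) were lower in this way. The same filter was used, with the rich samples in its mean. The 37 included the 6 alpha-globin sets and 29 sets of 26 named genes. Among these genes were CORO1A (1.89 on average), HLA-DQB1 (1.83), TRBC1 (1.57), PTPRC (1.57, on the first of its sets), IKZF1 (1.53), PSMB8 (1.45), MNDA (1.36), RAC2 (1.32), PTGER4, a prostaglandin E2 receptor (1.29), CX3CR1 (1.28) and CXCR4 (1.16). POSTN, the matrix protein periostin, also belonged to them at 1.502, with 3.17 in old males and 0.47 in old females. So did MYL10 (1.36), EIF2S2 (1.15), NPTX2 (1.14), CCN5 (1.13), NR4A3 (1.10), E2F3 (1.02), RNF167 (1.01) and ISG20L2 (1.003). EIF2S2 read 5.20 to 5.99 in the poor samples whose arrays correlated least with the others, and 8.26 to 8.82 in the other poor ones. TRBC1 too was low in the former. How many of the 37 rest on those samples was not tested. The 8 lower sets included DES and BCHE.

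Smooth muscle genes were lower in the pooled comparison. All 18 genes of the contractile list had a difference below 0, against 49.6% of all genes, and 5 reached -0.5, against 2.88%. The list's median was -0.35. In bulk tissue, fewer smooth muscle cells, less RNA per cell and a larger share of RNA from other cells cannot be told apart. DES (desmin, the intermediate filament of muscle) differed by -1.53, ACTG2 (gamma smooth muscle actin) by -0.55, MYH11 (smooth muscle myosin heavy chain) by -0.54 and MYLK (myosin light chain kinase) by -0.53. The bright ACTA2, smooth muscle alpha-actin, gave -0.38 and TAGLN, or transgelin, -0.08.

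This difference too was uneven. The median was -0.95 in old females with none of 18 genes higher, -0.21 in old males with 6 higher, 0.30 in young females with 14 higher and 0.06 in young males with 10 higher. Without old female 6, whose list mean of 11.88 was the lowest of all samples, the pooled median was -0.07. The other rich samples lay at 12.87 to 13.38 and the poor ones at 12.18 to 13.85. The 4 poor samples whose arrays correlated least with the others lay at 12.18 to 13.19, the rest at 13.30 to 13.85. With each array centred on its median in place of quantile normalisation the pooled median was -0.14, a setting in which the median of all probe sets shifted by 0.10. Settings other than leaving out 1 sample gave -0.357 to -0.142. They include the one without all 6 samples of least array correlation.

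Desmin was lower in the rich samples of each age and sex group. It read 11.32 in old male 6, 9.98 in old female 3, 9.72 in young female 6, 9.32 in old female 6, 9.01 in young male 6 and 8.06 in old female 5. The poor samples ran from 9.47 to 12.86, so 3 of the 6 rich samples lay below all poor ones. The difference was -3.40 in old females, -1.20 in old males, -0.68 in young females and -1.12 in young males.

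BCHE, butyrylcholinesterase, was lower in rich samples with little overlap. It read 8.59 in old female 3 and 5.95 to 6.91 in the other 5 rich samples, against 7.15 to 9.36 in poor ones. Its difference was -1.44, and -1.12, -2.17, -1.44 and -2.46 in old females, old males, the young females and the young males. PREP, prolyl endopeptidase, was likewise lower by -1.19 with 5 of 6 rich samples below all poor ones. Counting non-overlapping sets of any size, 9 (0.081%) were higher, the 8 and the gamma-chain set, and 1 (0.009%) was lower. That set, of RETREG2, a protein of the endoplasmic reticulum, read 8.40 to 8.60 in rich and 8.72 to 9.65 in poor samples, a difference of -0.60, and the gene's 3 other sets gave -0.25, -0.08 and 0.09. RPS4Y1 was lower by -1.495, with -0.38 when averaged inside the groups. Males made up 2 of the 6 rich and 6 of the 11 poor samples.

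The other vessel lists had pooled medians nearer to 0. The median was -0.01 for 18 endothelial genes, 0.03 for 12 fibroblast and collagen genes, 0.04 for 13 elastic fibre genes and -0.18 for 7 pericyte genes. For the endothelium it was 0.87 in old females, -0.31 in old males, 0.18 in young females and -0.07 in young males. For elastic fibres it was -0.52 in old females, 0.99 in old males, 0.31 in young females and 0.32 in young males, so 3 of the 4 groups were above 0. In each of these 3 groups the poor side held samples whose arrays correlated least with the others. The elastic fibre list means of those poor samples were 9.47 to 11.20, against 11.45 to 12.02 in the other poor ones. Without old female 6 the elastic fibre median was 0.33 and the pericyte median turned to 0.05. Without the 6 divergent samples, those whose arrays correlated least with the others, the pooled endothelial median was 0.31. In that setting the elastic fibre median was -0.01 and the pericyte median -0.06. PECAM1, an adhesion molecule of endothelium and also of white cells and platelets, was higher in each group on one probe set, by 1.05 on average inside the groups, while its brightest set gave a pooled difference of 0.01. Genes of haemoglobin, haem and iron handling had a median of 0.04 over 11 genes. HMOX1, the haem-degrading oxygenase, read 11.66 in old female 3 and 6.29 to 7.81 in the other rich samples, against 5.27 to 9.71 in poor ones. Hypoxia and immediate early genes had medians of 0.02 and 0.03.

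**Figure D4:**
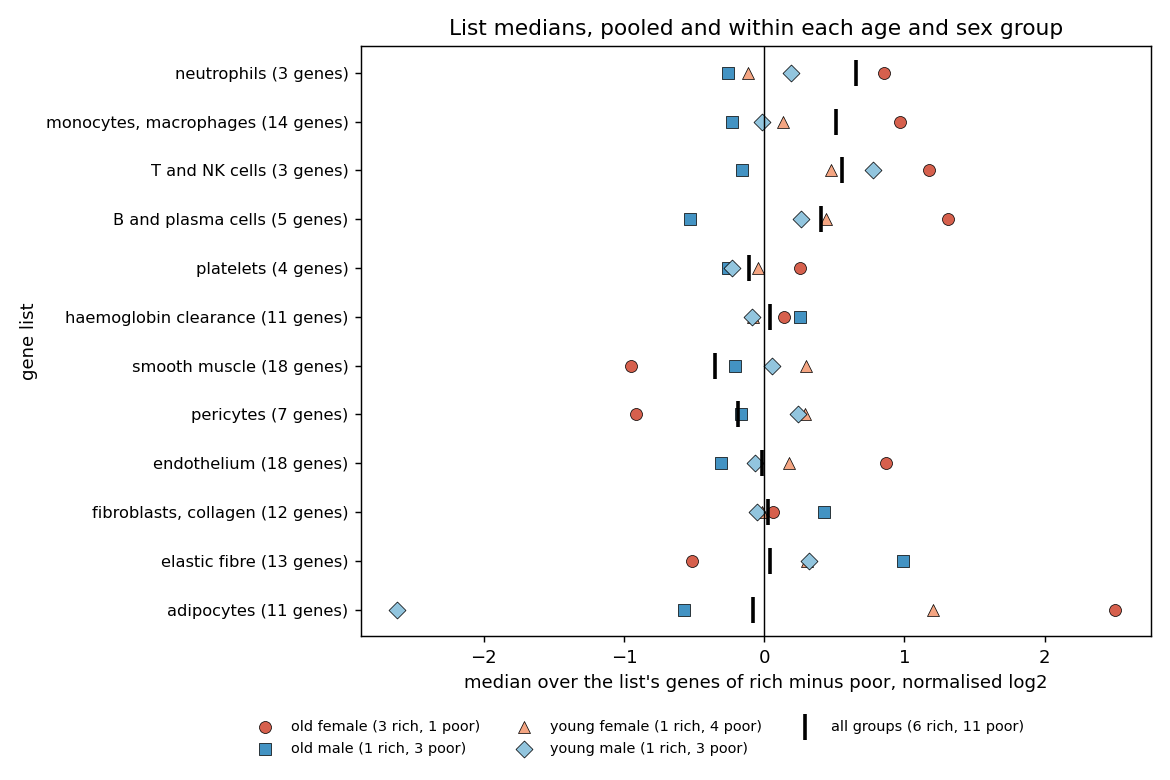
Median over the genes of each list of the difference rich minus poor (normalised log2), for all samples (black bars) and inside each age and sex group (symbols, with the numbers of rich and poor samples); only genes above the low-value filter are counted. The 4 white cell lists lie farthest right in old females, where 3 rich samples meet 1 poor one, and left of 0 in old males. Smooth muscle is at -0.95 in old females and at 0.30 in young females, whose poor samples include the divergent averaged 3 and 4.

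Fat genes ran in opposite directions in the groups. The 11 genes of the adipocyte list had a median of -0.08, which was 0.54 without young male 6 and 0.69 without the 6 divergent samples, with 2.50 in old females, 1.21 in young females, -0.57 in old males and -2.62 in young males. UCP1, the uncoupling protein of brown fat, read 11.99 in old female 5, 11.53 in old female 6 and 10.75 in young female 6, but 5.46 in young male 6. Among poor samples it reached 13.28 in young female 2 and 12.23 in old male 4. High UCP1 thus occurred in rich and poor samples alike.

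**Figure D5:**
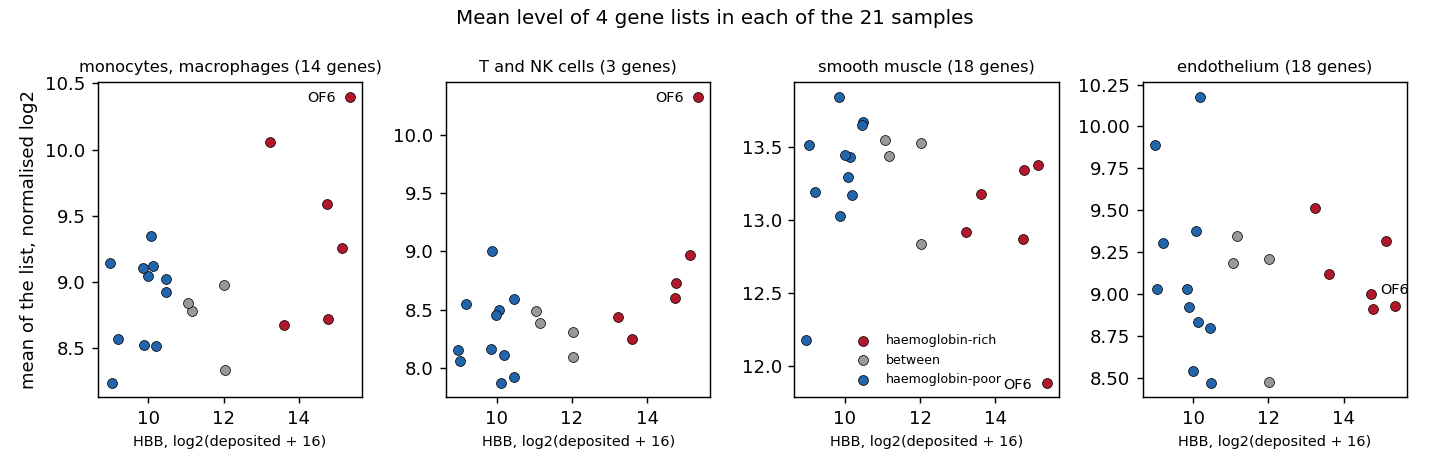
Mean normalised log2 level of 4 gene lists in each of the 21 samples against HBB, log2(deposited intensity + 16); colours mark the kind of sample and OF6 is old female 6. Old female 6 has the highest T and natural killer cell mean, 10.33, and the lowest smooth muscle mean, 11.88. The endothelial means of rich samples, 8.91 to 9.51, lie within those of poor ones, 8.47 to 10.18. The highest poor endothelial means, 10.18 in old male 4 and 9.89 in the averaged young females 3 and 4, come from divergent samples.

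Ranked by likeness to HBB over the 21 samples, the alpha-globin sets came first, with Spearman correlations of 0.87 to 0.91. Over the 15 samples that were not rich these were still 0.66 to 0.78. The 10 named genes most like HBB were CXCR4 at 0.86, DGKA at 0.78, HABP4 at 0.77, CMTR1 at 0.76, DIAPH1, TNPO3, CYLD and SMCO4 at 0.73, and SPG11 and IKZF1 at 0.71. DGKA, a diacylglycerol kinase, and IKZF1 are known from lymphocytes. Over the 15 samples that were not rich HABP4 stood at 0.825, DIAPH1 at 0.77, CYLD at 0.76, CXCR4 at 0.74 and TNPO3 at 0.72. There SMCO4 stood at 0.71, CMTR1 at 0.68, DGKA at 0.66, SPG11 at 0.61 and IKZF1 at 0.26. The genes were picked for a high value among all named genes above the filter, and the points share arrays and scaling, so these correlations carry no p.

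The labelled groups allow a test that the split by haemoglobin does not. Mean alpha-globin was 12.37 ± 1.995 (SD, n = 5) in old females, 10.78 ± 1.31 (n = 6) in old males, 10.64 ± 2.27 (n = 5) in young females and 10.82 ± 2.47 (n = 5) in young males, with ranges that overlapped widely. In limma's fit over 11108 probe sets, 0 (0%) were called for old against young at an adjusted p of 0.05 (485 at an unadjusted p under 0.05) and 0 (0%) for the difference of the age effects of the sexes (218 unadjusted). For male against female 1 (0.009%) was higher, RPS4Y1, and 2 (0.018%) lower, both XIST. None of the 9 globin probe sets above the filter other than HBB was called in any contrast, and their median log2 change was 0.78 for age, -0.64 for sex and -1.74 for the interaction.

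Of the red cell, platelet and white cell genes, those with the smallest p in each contrast did not pass either. For age UROS, an enzyme of haem synthesis, was higher in old samples by 0.52 ± 0.17 on the log2 scale (SE; limma adjusted p = 0.985). For sex, TYROBP gave -0.62 ± 0.21 (limma adjusted p = 1), lower in males. For the interaction, MMP9, a gelatinase of neutrophils and macrophages, gave -1.51 ± 0.58 (limma adjusted p = 1). For sex, 6 of the 16 monocyte and macrophage probe sets had an unadjusted p under 0.05, and 320 of all 11108 probe sets had such a p. All 16 were lower in males, while 5721 of the 11108 were higher in males.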

How the data were processed

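The authors deposited 1 linear intensity per probe set and array, from human expression arrays; probe summary and scaling are not given in the sources used here. Of 22277 probe sets, 62 controls were left out. Intensities became log2(intensity + 16) and, since array medians ran from 7.32 to 8.13, were quantile normalised. Near-identical array pairs (SD of the log2 difference 0.227 to 0.383, against 0.427 or more in 273 other pairs) were averaged. The low-value filter kept 11108 probe sets. The platform annotation gave 1 symbol to 19064 probe sets, several to 1043 and none to 2108. Rich and poor samples were compared by means, ranges and overlap. A list counts each gene once, by the probe set with the highest mean. Named genes were those called, the list members with the largest differences, and the red cell sets differing by at least 1; a few others are marked as picked after their values were seen. Labelled contrasts used limma 3.58.1 in R 4.3.3 (4 group means, trended eBayes, Benjamini-Hochberg). On simulated data with independent noise and an age change of 3 on the log2 scale, the fit recovered 200 of 200 changed probe sets, with 12 false calls. Smaller changes were not simulated, so that check does not show whether they would be called. The members and 21 gene lists were chosen with earlier results of these data known. No sequence of a probe or gene was used here.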

Additional observations from a re-analysis of the deposited data

Results flagged for a closer look

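Within the age and sex groups, 68 sets of values were examined for 1 sample far from the others, and 5 were singled out. Chance singles out about 1 in 20. In young females, sample 6 stood above the rest for HBB at 15.13, next to 10.46; HBB chose this sample as rich, so that value restates the choice and is left out of any comparison with chance. Alpha-globin, which follows HBB, was at 14.60 there, next to 10.32.

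In old females, sample 6 stood above the rest for CXCR4 at 12.92, next to 9.13, and for the mean of the T and natural killer cell genes at 10.33, next to 8.60. In young females, the averaged samples 3 and 4 stood below the rest for the mean of the smooth muscle genes at 12.18, next to 13.30, although this sample had the weakest HBB of all at 8.98. Both that sample and old female 6 are among the divergent samples, whose arrays correlated least with the others.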

How the results depend on the processing

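Stricter limits moved the rich samples with the weakest HBB out of the rich kind and left the poor kind unchanged. With fewer rich samples, ranges free of overlap are easier to reach. The 8 non-overlapping higher probe sets became 20 with these limits and 37 within the groups (higher in each). They numbered 8 to 14 when 1 sample was left out. The 0 lower ones became 3, 8 and, without the 6 divergent samples, 2, with 0 to 1 when 1 sample was left out. Probe sets higher by at least 1 went from 67 to 107 with stricter limits and 198 with no filter. Lower ones went from 20 to 53 and 82 in these settings, 12 within the groups and 43 without the divergent samples, with 16 to 31 when 1 sample was left out. The B cell and plasma cell median turned to -0.001 without old female replicate 6, the lowest of the values with 1 sample left out, which reached 0.642. With the replicate block, calls for age went from 0 to 1. Whether the replicate numbers pair samples is not stated in the labels and was not tested. Correlations of the 30 same-number pairs ran from -0.425 to 0.509 (median 0.065). Those of the 135 other pairs ran from -0.497 to 0.505 (median -0.003). In 8 of 21 samples the closest sample of another group had the same number. Calls for sex went from 3 to 6 with no filter, 5 with array weights, and up to 5 without young male replicate 1. The causes were not tested.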
